A study of Mus musculus with 11 samples.

Results

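The heart takes most of its fuel from fatty acids, which reach it bound to albumin or packed as triglycerides in lipoproteins. Lipoprotein lipase, made mainly by cardiomyocytes, is carried across the capillary endothelium and held on its luminal face by Gpihbp1, where it releases fatty acids from the lipoproteins. The fatty acids then pass through endothelial cells and into the muscle with the help of Cd36, transport proteins and small fatty acid binding proteins, and are trapped there as acyl-CoA. The 10 genes described here cover these steps. They are Cd36 (a scavenger receptor that takes up fatty acids), Slc27a1 (fatty acid transport protein), Acsl1 (the main long-chain acyl-CoA synthetase of the heart), Fabp3 (the fatty acid binding protein of muscle), Fabp4 (the binding protein of adipocytes, macrophages and capillary endothelium), Fabp5 (its epidermal relative, also endothelial), Lpl (lipoprotein lipase), Gpihbp1 (its endothelial anchor), Vldlr (the receptor for very low density lipoproteins) and Angptl4 (a secreted inhibitor of lipoprotein lipase). They were named for their roles and matched by symbol to the gene identifiers of the table. All 10 were found among its 22608 genes, and all 10 were among the 11319 genes that passed the filter on low counts (a mean log2 CPM of 1 or more, CPM being counts scaled to equal library size).

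RNA was sequenced from the heart, labelled as ventricle, of 11 male mice aged 8 to 16 weeks on a C57BL/6J background. CD mice carry the complete deletion, in which a single copy of the chromosome 5 interval matching the Williams–Beuren syndrome critical region is left, and WT littermates carry both copies. Of these, 2 WT VEH and 3 CD VEH mice were controls, and 3 WT JZL184 and 3 CD JZL184 mice received JZL184, an inhibitor of monoacylglycerol lipase (the enzyme that breaks down the endocannabinoid 2-arachidonoylglycerol), at 8 mg/kg daily for 10 days. The treatment field of the labels gives the 5 control mice as untreated, whereas the titles give vehicle. The table names each mouse by its group and a letter, which is used here. The deletion spans every cell of the animal, so the comparison of genotypes is not specific to the heart.

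Libraries held between 69660232 and 92251443 estimated counts, and 3 counts corresponded to 0.0325 to 0.0431 CPM, a limit set by counting error alone. Mitochondrially encoded RNA made up 39.4% to 41.2% of counts in WT VEH, 45.0% to 46.6% in WT JZL184, 43.5% to 44.7% in CD VEH and 36.4% to 40.2% in CD JZL184. Of 14 listed genes of the deleted interval, 12 were tested, and all 12 had lower levels in each CD heart than in any WT heart. Cd36 also lies on chromosome 5, but 116 Mb from the nearest listed gene of that interval. The cardiomyocyte markers reached a summed level of at least 57750 CPM in every mouse. The globin genes and Alas2 (blood markers) summed to 18790 CPM in CD VEH mouse A and to between 1416 and 5498 CPM in the other mice.

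Fabp3 and Fabp4, the muscle and the endothelial binding protein whose ratio is followed below, are related genes. Their first coding segments are shown because the reads of both have to be told apart for that ratio. Both are 73 bases long, from the start codon to the end of exon 1 (GRCm38, GENCODE M21), and capitals mark the 52 positions at which they are identical. The segment of Fabp3 lies at chr4:130308778-130308850 on the plus strand and that of Fabp4 at chr3:10208439-10208511 on the minus strand, in an exon of each gene, and both are written in the direction of transcription.
Fabp3: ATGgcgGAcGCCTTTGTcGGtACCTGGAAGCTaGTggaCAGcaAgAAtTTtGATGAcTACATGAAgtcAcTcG
Fabp4: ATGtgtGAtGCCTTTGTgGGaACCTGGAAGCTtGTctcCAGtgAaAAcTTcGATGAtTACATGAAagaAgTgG
Over the whole coding sequence, Fabp3 and Fabp4 shared 65.7% of aligned positions and their longest identical run was 14 bases. Fabp5 shared 57.1% with Fabp3 (longest run 10 bases) and 61.1% with Fabp4 (longest run 12 bases). Fabp4 and Fabp5 sit on the same chromosome, with 187 kb between the end of Fabp5 and the start of Fabp4.

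Of the 10 genes, 5 had promoter entries in the RefSeq table for GRCm38.p6 (9 starts in all). Acsl1 and Vldlr, which moved together in every comparison below, are shown by the 250 bases before their most upstream listed start. The window of Acsl1 lies at chr8:46470787-46471036 and that of Vldlr at chr19:27216234-27216483, both on the plus strand. Capitals mark matches to GGGCGG, the GC box.
Acsl1: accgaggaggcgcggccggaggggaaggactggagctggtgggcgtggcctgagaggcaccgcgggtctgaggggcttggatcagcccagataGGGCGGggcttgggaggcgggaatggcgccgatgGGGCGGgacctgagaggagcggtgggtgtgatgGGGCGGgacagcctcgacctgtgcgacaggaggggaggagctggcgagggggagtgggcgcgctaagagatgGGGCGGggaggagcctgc
Vldlr: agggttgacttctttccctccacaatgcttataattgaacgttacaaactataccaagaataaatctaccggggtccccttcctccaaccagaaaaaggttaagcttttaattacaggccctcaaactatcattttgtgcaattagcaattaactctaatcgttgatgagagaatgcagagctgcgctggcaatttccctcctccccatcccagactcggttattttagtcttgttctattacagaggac
The window of Acsl1 held 4 matches to GGGCGG, and that of Vldlr held none. No match to AGGTCA (the core motif of nuclear receptors), CCAAT or TATAAA was found in either window on either strand. The contrast holds for these starts and not for the others listed, as the window of the other Acsl1 start (chr8:46490716-46490965) held 0 matches to GGGCGG and 2 to CCAAT, and that of the other Vldlr start (chr19:27216770-27217019) held 1 of each. Over 32851 promoter windows of the same length, 14.02% held AGGTCA, 32.7% GGGCGG, 33.9% CCAAT and 12.4% TATAAA. These are matches of letters only.

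Levels differed widely between the genes. Per kilobase of the union of exons, Fabp3 was the highest of the 10 (2977 CPM per kb, mean of the 11 mice), followed by Cd36 (419), Lpl (328), Fabp4 (85.6), Acsl1 (56.8), Vldlr (34.6), Gpihbp1 (26.2), Slc27a1 (13.2), Fabp5 (9.39) and Angptl4 (6.22). The order depended on the length used for each gene. The annotated exons of Fabp4 together cover 4489 bases, its whole span, whereas its principal transcript has 896 bases. On the principal length it stood at 429 CPM per kb, beside Cd36 at 443 CPM per kb. Fabp3 was first and Angptl4 last on that length too. On the principal length Gpihbp1 stood at 81.1 and Fabp5 at 33.9 CPM per kb.

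**Figure D1:**
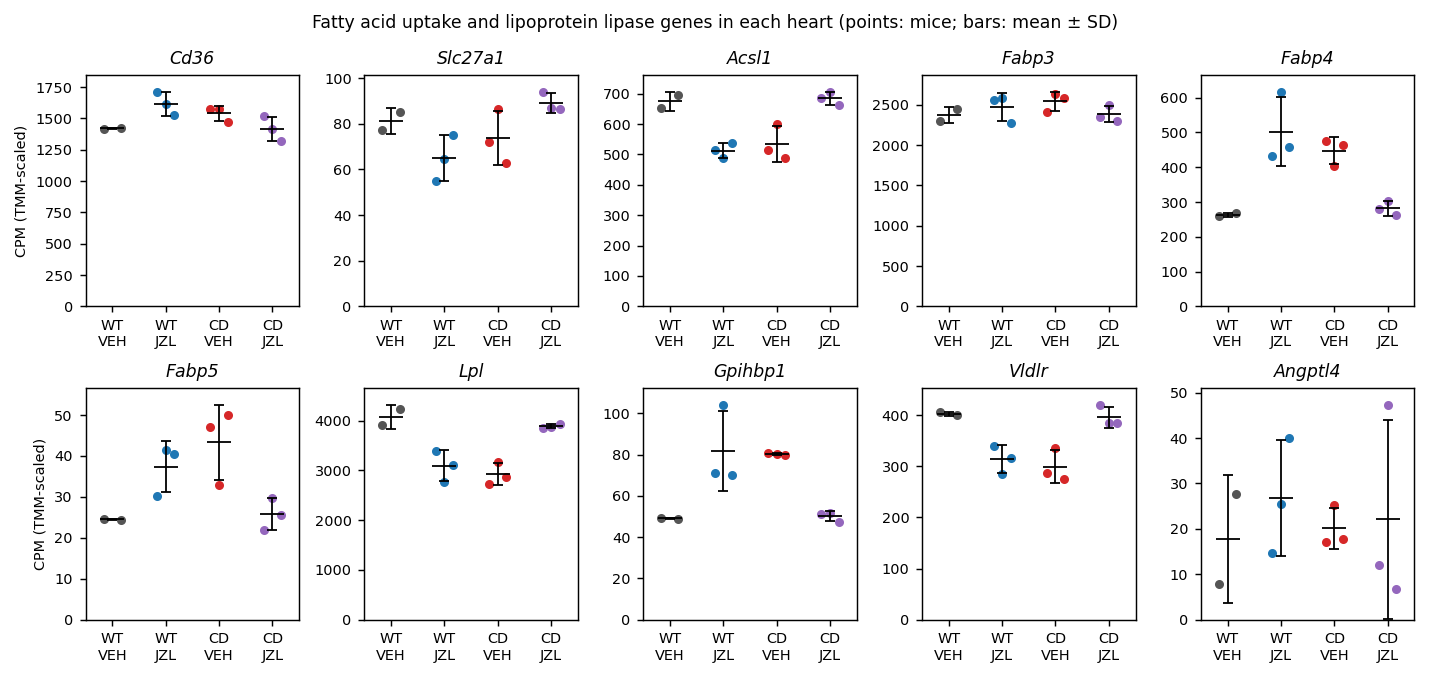
CPM (library-scaled counts, TMM) of each of the 10 genes on a linear axis from 0, with a point for each mouse and black bars for the group mean ± SD (2 WT VEH mice, 3 in each other group; JZL stands for JZL184). Fabp4, Fabp5 and Gpihbp1 are high in WT JZL184 and CD VEH, Lpl, Acsl1 and Vldlr are low in the same groups, and Fabp3 stays between 2275 and 2639 CPM in every mouse.

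The opening comparison asked what the deletion does in vehicle-treated hearts. In CD VEH versus WT VEH, 3 of the 10 genes were higher (Fabp4, Fabp5 and Gpihbp1), 3 were lower (Lpl, Acsl1 and Vldlr) and 4 were not called, judged by the quasi-likelihood test of edgeR at a Benjamini-Hochberg adjusted p under 0.05 over all tested genes. Among all tested genes, 15.0% were called higher and 15.4% lower. The higher genes are those of the endothelial side, and the lower ones are the lipase, the acyl-CoA synthetase and the lipoprotein receptor.

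Fabp4 stood at 260 and 267 CPM in the WT VEH mice C and D. In CD VEH it reached 476, 403 and 463 CPM in mice A, C and E. Every CD VEH mouse was thus above both WT VEH mice, at a log2 fold-change of 0.76 ± 0.14 (the error is the SE here and for all fold-changes; edgeR adjusted p = 0.0045), or 1.70-fold. Gpihbp1, the anchor of the lipase, was at 49.3 and 49.0 CPM in WT VEH and at 81.0, 80.5 and 80.0 CPM in CD VEH. The groups did not overlap and the CD VEH mice lay within 1 CPM of each other, with a log2 fold-change of 0.71 ± 0.14 (edgeR adjusted p = 0.0055). Fabp5 was at 24.7 and 24.4 CPM in WT VEH and at 47.0, 32.9 and 50.02 CPM in CD VEH, again without overlap, but mouse C lay well below the other CD VEH mice. Its log2 fold-change was 0.82 ± 0.19 (edgeR adjusted p = 0.00921).

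Lpl moved the other way. It was at 3901 and 4241 CPM in WT VEH and at 2732, 3159 and 2869 CPM in CD VEH, so each CD VEH heart held less than either WT VEH heart. The log2 fold-change was -0.48 ± 0.10 (edgeR adjusted p = 0.00652), which is 0.717 of the WT VEH level. Vldlr was at 406 and 400 CPM in WT VEH and at 286, 337 and 275 CPM in CD VEH, with a log2 fold-change of -0.43 ± 0.10 (edgeR adjusted p = 0.01). Acsl1, which activates fatty acids to acyl-CoA, was at 653 and 696 CPM in WT VEH and at 514, 602 and 488 CPM in CD VEH. Its log2 fold-change of -0.34 ± 0.09 (edgeR adjusted p = 0.0207) was the smallest of the 6 calls.

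The general uptake genes were not called. Cd36 had a log2 fold-change of 0.12 ± 0.09 (edgeR adjusted p = 0.31), although all CD VEH mice (1473 to 1579 CPM) were above the WT VEH mice (1419 and 1424 CPM). Fabp3 stood at 2301 and 2444 CPM in WT VEH and at 2413, 2639 and 2581 CPM in CD VEH, with groups that overlapped and a log2 fold-change of 0.10 ± 0.09 (edgeR adjusted p = 0.389). Slc27a1 was at 77.1 and 85.3 CPM in WT VEH and at 72.0, 86.5 and 62.8 CPM in CD VEH (log2 fold-change -0.14 ± 0.14, edgeR adjusted p = 0.453). The calls rest on both WT VEH mice. Without mouse C 1 gene (Lpl) passed and without mouse D 2 genes (Fabp4 and Gpihbp1) passed, while the log2 fold-change of Fabp4 was 0.74 and 0.78 in these fits. When CD VEH mouse A, the heart rich in blood markers, was left out, 5 of the 6 genes passed and Acsl1 did not (edgeR adjusted p = 0.0656). Acsl1 lost its call in 4 of the 5 fits that left out 1 mouse, that without CD VEH mouse E included (edgeR adjusted p = 0.0727). The mitochondrial share was higher in WT JZL184 and CD VEH than in the other groups, and with mitochondrial genes removed the same number of genes was called in this comparison and in the 3 further comparisons of groups.

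**Figure D2:**
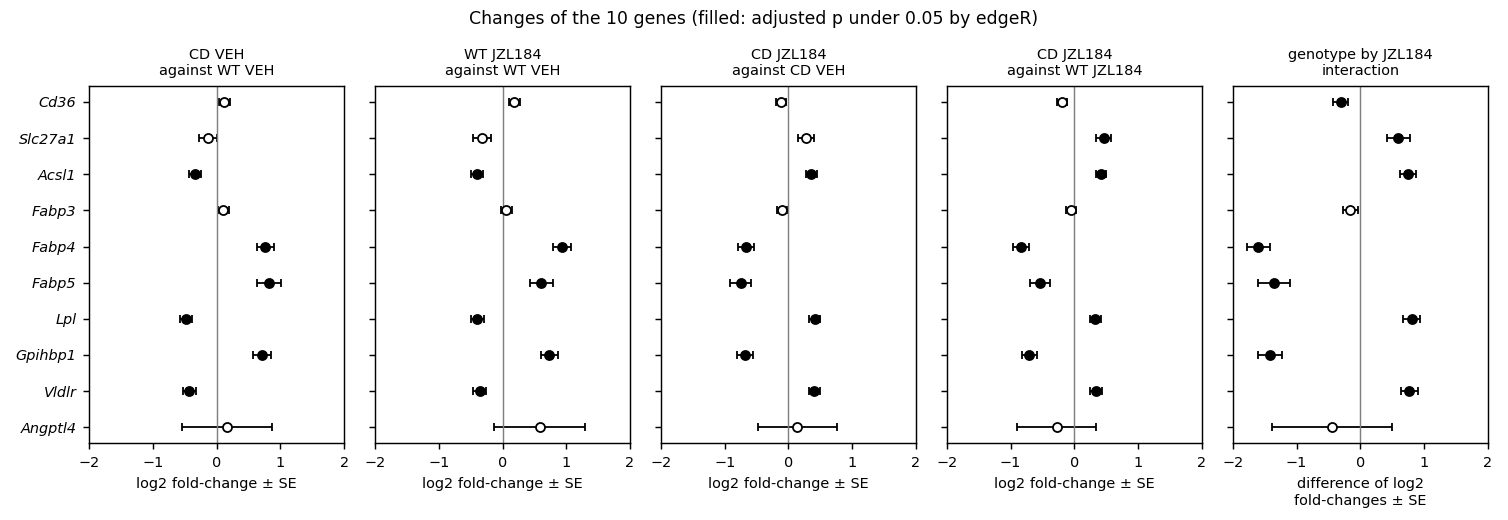
Log2 fold-change ± SE of the 10 genes in 4 comparisons and the difference between the JZL184 effects in CD and in WT mice, with filled points for an edgeR adjusted p under 0.05 and open points for the others. Fabp4, Fabp5 and Gpihbp1 lie on one side of 0 and Lpl, Acsl1 and Vldlr on the other in each panel, and Angptl4 has the widest error in every panel.

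The next comparison asked what JZL184 does in CD hearts, and it uses the same CD VEH mice as that above. In CD JZL184 versus CD VEH, 3 of the 10 genes were lower (Fabp4, Fabp5 and Gpihbp1) and 3 were higher (Lpl, Acsl1 and Vldlr), where 17.0% of all tested genes were called lower and 16.8% higher. Because both comparisons share the CD VEH mice, a deviation of these mice moves both in opposite directions, and the values are given side by side only.

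Fabp4 was at 281, 304 and 262 CPM in the CD JZL184 mice A, C and E, each below the lowest CD VEH mouse at 403 CPM. Its log2 fold-change was -0.66 ± 0.12 (edgeR adjusted p = 0.00361), against 0.76 for the deletion. Gpihbp1 was at 51.2, 51.9 and 47.3 CPM, also below all CD VEH mice, with a log2 fold-change of -0.68 ± 0.12 (edgeR adjusted p = 0.00327). Fabp5 was at 21.9, 29.8 and 25.6 CPM in CD JZL184. The groups did not overlap, and the log2 fold-change was -0.75 ± 0.16 (edgeR adjusted p = 0.00642).

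Lpl rose to 3848, 3878 and 3928 CPM in CD JZL184, a spread much smaller than that of the CD VEH mice. The log2 fold-change was 0.41 ± 0.09 (edgeR adjusted p = 0.00631), or 1.33-fold. Vldlr was at 420, 385 and 384 CPM, above every CD VEH mouse, with a log2 fold-change of 0.40 ± 0.09 (edgeR adjusted p = 0.00702). Acsl1 was at 685, 706 and 663 CPM, above the CD VEH mice, with a log2 fold-change of 0.36 ± 0.08 (edgeR adjusted p = 0.00921). Slc27a1 was at 94.0, 86.8 and 86.54 CPM, each above the highest CD VEH value of 86.50 CPM by a narrow margin at the low end. It was not called (log2 fold-change 0.27 ± 0.12, edgeR adjusted p = 0.101).

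Cd36 was at 1517, 1412 and 1321 CPM in CD JZL184 and overlapped with CD VEH (log2 fold-change -0.12 ± 0.08, edgeR adjusted p = 0.233). Fabp3 was at 2349, 2496 and 2302 CPM (log2 fold-change -0.10 ± 0.08, edgeR adjusted p = 0.355). Neither gene passed the test. Leaving out any 1 mouse of these groups gave 6 or 7 called genes.

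A further comparison asked what JZL184 does in WT hearts. Comparing WT JZL184 with WT VEH, Fabp4, Fabp5 and Gpihbp1 were higher and Lpl, Acsl1 and Vldlr lower, 3 genes each way, where 15.4% of all tested genes were called higher and 14.0% lower. This comparison shares the 2 WT VEH mice with that of the genotypes.

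Fabp4 stood at 431, 617 and 460 CPM in the WT JZL184 mice A, B and D, all above WT VEH. The mean of 503 CPM ± 100 (SD, n = 3) was the highest of the groups, but only mouse B lay above the highest CD VEH mouse (476 CPM). The log2 fold-change over WT VEH was 0.93 ± 0.14 (edgeR adjusted p = 0.00232). Gpihbp1 was at 71.2, 104 and 70.2 CPM, with mouse B again far above the others and a log2 fold-change of 0.74 ± 0.14 (edgeR adjusted p = 0.00484). Without mouse B the log2 fold-changes were 0.76 for Fabp4 and 0.53 for Gpihbp1, both still called, while Fabp5 (edgeR adjusted p = 0.0769) and Vldlr (edgeR adjusted p = 0.0574) lost their calls in that fit. With the compared groups alone, Lpl (edgeR adjusted p = 0.077) and Vldlr (edgeR adjusted p = 0.0694) lost theirs. Fabp5 was at 30.3, 41.4 and 40.6 CPM (log2 fold-change 0.61 ± 0.18, edgeR adjusted p = 0.0294), and mouse A stood low. Its call was lost in 4 of the 5 fits that left out 1 mouse (edgeR adjusted p of 0.0735 to 0.136 in these), and that of Vldlr in 3 of 5 (edgeR adjusted p of 0.0574 to 0.115).

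Lpl was at 3394, 2773 and 3114 CPM in WT JZL184, below both WT VEH mice (log2 fold-change -0.40 ± 0.10, edgeR adjusted p = 0.0134). Acsl1 was at 515, 487 and 538 CPM and did not overlap with WT VEH either (log2 fold-change -0.40 ± 0.09, edgeR adjusted p = 0.011). Vldlr was at 340, 286 and 316 CPM (log2 fold-change -0.36 ± 0.10, edgeR adjusted p = 0.0202). In these genes the mouse with the most Fabp4, mouse B, had the lowest level of the group.

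Slc27a1 was at 55.0, 64.5 and 75.1 CPM, below both WT VEH mice, but missed the threshold (log2 fold-change -0.32 ± 0.14, edgeR adjusted p = 0.0909). Cd36 was at 1713, 1611 and 1524 CPM, above both WT VEH mice, and missed it too (log2 fold-change 0.19 ± 0.09, edgeR adjusted p = 0.12). With DESeq2 in place of edgeR, Cd36 passed (DESeq2 adjusted p = 0.0421). Fabp3 overlapped, at 2558, 2588 and 2275 CPM (log2 fold-change 0.06 ± 0.09, edgeR adjusted p = 0.621). Without WT VEH mouse C 1 gene passed (Fabp4), and without mouse D 2 genes passed (Fabp4 and Gpihbp1).

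Another comparison set the genotypes side by side under JZL184. In CD JZL184 versus WT JZL184, 4 genes were higher (Lpl, Slc27a1, Acsl1 and Vldlr) and 3 lower (Fabp4, Fabp5 and Gpihbp1), where 18.2% of all tested genes were called higher and 20.1% lower. Fabp4 had a log2 fold-change of -0.83 ± 0.12 (edgeR adjusted p = 0.00102) and Gpihbp1 one of -0.71 ± 0.12 (edgeR adjusted p = 0.00177). Fabp5 followed with -0.54 ± 0.16 (edgeR adjusted p = 0.0223), but lost its call in 4 of the 6 fits that left out 1 mouse. The edgeR adjusted p was 0.0708 or 0.07 when mouse B or D of WT JZL184 was left out, and 0.0868 or 0.0618 for mouse A or E of CD JZL184. Slc27a1, which was called in none of the preceding comparisons, had the largest fold-change of the higher genes at 0.46 ± 0.12 (edgeR adjusted p = 0.0127), with every CD JZL184 mouse above every WT JZL184 mouse. For Acsl1 the log2 fold-change was 0.42 ± 0.08 (edgeR adjusted p = 0.00345), for Vldlr 0.34 ± 0.09 (edgeR adjusted p = 0.0125) and for Lpl 0.33 ± 0.09 (edgeR adjusted p = 0.0135). Cd36 was lower in every CD JZL184 mouse but was not called (log2 fold-change -0.19 ± 0.08, edgeR adjusted p = 0.0681). It was called with DESeq2 (DESeq2 adjusted p = 0.0156) and with upper quartile scaling of the libraries (edgeR adjusted p = 0.0419).

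The difference between the JZL184 effects in CD and WT mice was then tested itself, as the interaction of genotype and treatment over all 4 groups. It was called for 8 of the 10 genes, 4 lower (Cd36, Fabp4, Fabp5 and Gpihbp1) and 4 higher (Lpl, Slc27a1, Acsl1 and Vldlr), where 26.2% of all tested genes were called lower and 25.3% higher. The largest difference was that of Fabp4 at -1.60 ± 0.19 on the log2 scale (edgeR adjusted p = 0.000152), followed by Gpihbp1 at -1.42 ± 0.19 (edgeR adjusted p = 0.000222) and Fabp5 at -1.36 ± 0.25 (edgeR adjusted p = 0.00105). Lpl differed by 0.81 ± 0.13 (edgeR adjusted p = 0.000599), Vldlr by 0.76 ± 0.13 (edgeR adjusted p = 0.000838), Acsl1 by 0.75 ± 0.13 (edgeR adjusted p = 0.000662) and Slc27a1 by 0.60 ± 0.18 (edgeR adjusted p = 0.0171). Cd36 was at the edge of the threshold, with -0.31 ± 0.11 (edgeR adjusted p = 0.0415), and lost its call in 5 of the other settings and in 8 of the 11 fits that left out 1 mouse (edgeR adjusted p of 0.056 to 0.113 in these). Slc27a1 ranged from 0.49 to 0.73 over the 11 fits and lost its call in 1 of them. Fabp3 was not called (-0.16 ± 0.12, edgeR adjusted p = 0.282).

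A ratio of counts within a heart does not depend on how libraries are scaled. Fabp4 counts were 11.3% and 10.9% of Fabp3 counts in the WT VEH mice and 16.9%, 23.9% and 20.2% in the WT JZL184 mice. They were 19.7%, 15.3% and 17.9% in CD VEH and 11.95%, 12.2% and 11.4% in CD JZL184. The endothelial binding protein was thus higher relative to the muscle one in every WT JZL184 and CD VEH heart than in any WT VEH or CD JZL184 heart. The mean log2 ratio ± SD was -3.17 ± 0.03 for the 2 WT VEH mice and, with 3 mice each, -2.31 ± 0.25 for WT JZL184, -2.51 ± 0.19 for CD VEH and -3.08 ± 0.05 for CD JZL184.

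Gpihbp1 gave the same picture on a smaller scale. Its counts were 2.14% and 2.003% of Fabp3 counts in WT VEH and 2.79%, 4.02% and 3.09% in WT JZL184. They were 3.36%, 3.05% and 3.10% in CD VEH and 2.18%, 2.08% and 2.06% in CD JZL184. Again no WT JZL184 or CD VEH heart reached down to the other groups.

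Exact two-sided permutation tests over mice compared these log2 ratios, 10 in all (2 ratios and 5 comparisons). Each comparison of 2 groups gave p = 0.1, the smallest value that an exact permutation test of 2 against 3 or 3 against 3 mice can give, with no overlap between groups. For Fabp4 the differences were 0.66 in CD VEH versus WT VEH, -0.57 in CD JZL184 versus CD VEH, 0.86 in WT JZL184 versus WT VEH and -0.76 in CD JZL184 versus WT JZL184. For Gpihbp1 they were 0.61, -0.59, 0.65 and -0.63 in the same order. The interaction was -1.42 for Fabp4 and -1.24 for Gpihbp1. Each had an exact permutation p = 0.005 (the smallest of 200 arrangements), or 0.025 after Benjamini-Hochberg adjustment over the 10 tests. For the interaction, treatment labels were permuted within each genotype. That tests for no JZL184 effect in either genotype, so it cannot tell whether the 2 effects differ.

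**Figure D3:**
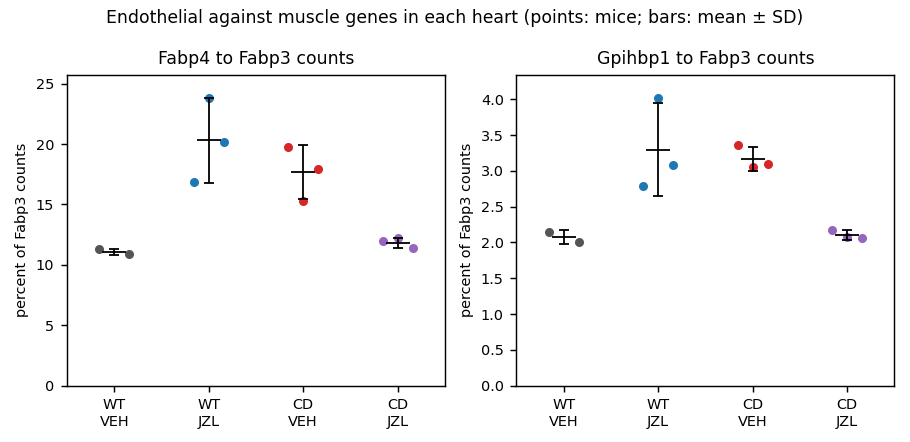
Counts of Fabp4 and of Gpihbp1 as a percentage of Fabp3 counts in the same heart, on linear axes from 0, with a point for each mouse and black bars for the group mean ± SD. Fabp4 lies at 15.3% or above in WT JZL184 and CD VEH and at 12.2% or below in WT VEH and CD JZL184, and Gpihbp1 lies at 2.79% or above and at 2.18% or below in the same groups.

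Angptl4, the inhibitor of lipoprotein lipase, was the most variable of the 10 genes and differed more between mice of a group than between groups. It stood at 7.89 and 27.8 CPM in WT VEH and at 14.7, 25.5 and 40.1 CPM in WT JZL184. It was at 17.1, 25.4 and 17.8 CPM in CD VEH and at 12.1, 47.3 and 6.83 CPM in CD JZL184, which held both the highest and the lowest heart of the study. All groups overlapped, and the largest log2 fold-change of a pair of groups was 0.58 ± 0.71 (WT JZL184 versus WT VEH, edgeR adjusted p = 0.555). When mouse C of CD JZL184 was left out, Angptl4 was called lower in CD JZL184 versus WT JZL184 (log2 fold-change -1.50, edgeR adjusted p = 0.0449).

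Angptl4 is a target of the PPAR nuclear receptors, which respond to fatty acids and fasting, and 12 other known PPAR targets were listed (10 of them tested). In each comparison of 2 groups, at most 1 of the 10 was called in each direction, where 14.0% to 20.1% of all tested genes were. In CD VEH versus WT VEH it was Cpt1b, the muscle enzyme that admits fatty acids to mitochondria, which was lower (log2 fold-change -0.37, edgeR adjusted p = 0.00731). The summed level of the list ran from 1463 to 2817 CPM and ordered the mice as Angptl4 did within all 4 groups. The same order was seen in all 4 groups for Pdk4 (a kinase that holds back glucose oxidation), Acot1 and Acot2 (thioesterases of acyl-CoA). Pdk4 was at 404 and 1073 CPM in WT VEH, at 398, 818 and 1057 CPM in WT JZL184, at 622, 861 and 711 CPM in CD VEH and at 610, 1234 and 261 CPM in CD JZL184. This agreement in order was seen after the values were known and is given as a description. The feeding state of the mice is not in the labels and its part was not tested.

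Markers of other cell types moved with the endothelial genes. In these bulk samples, fewer cells of a type and less RNA per cell cannot be told apart. The 12 endothelial markers summed to 981 to 990 CPM in WT VEH, 1429 to 1535 CPM in WT JZL184, 1235 to 1330 CPM in CD VEH and 951 to 1062 CPM in CD JZL184. Of these, 8 of 12 were called higher in CD VEH versus WT VEH, 10 of 12 lower in CD JZL184 versus CD VEH, and 12 of 12 higher in WT JZL184 versus WT VEH. The shares of all tested genes called in those directions were 15.0%, 17.0% and 15.4%. The median log2 fold-change of the list was 0.43, -0.39 and 0.61, and that of all tested genes lay within 0.01 of 0 in each. Pecam1, an adhesion molecule of endothelial junctions, changed by 0.46 (edgeR adjusted p = 0.00378), -0.43 (edgeR adjusted p = 0.00249) and 0.65 (edgeR adjusted p = 0.00118) on the log2 scale in these comparisons.

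Markers of heart capillaries, the vessels in which Gpihbp1 and Fabp4 are found, moved in the same directions as both genes. Their 8 genes summed to 800 to 811 CPM in WT VEH, 1209 to 1406 CPM in WT JZL184, 1144 to 1192 CPM in CD VEH and 796 to 802 CPM in CD JZL184. The group means of this sum gave 1.45-fold for CD VEH over WT VEH, 0.687-fold for CD JZL184 over CD VEH and 1.59-fold for WT JZL184 over WT VEH. The fitted folds of Fabp4 were 1.70, 0.631 and 1.91, and those of Gpihbp1 were 1.64, 0.623 and 1.66. Of the 8 markers, 5, 6 and 7 were called in these comparisons, in the direction of Gpihbp1. The shares of all tested genes called in those directions were 15.0%, 17.0% and 15.4%. How far the amount of capillary RNA and the level of Fabp4 and Gpihbp1 within it each contribute was not tested.

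Fabp4 is also a gene of macrophages and adipocytes. The 10 macrophage markers summed to 306 to 322 CPM in WT VEH, 403 to 680 CPM in WT JZL184, 407 to 528 CPM in CD VEH and 274 to 314 CPM in CD JZL184. Of these, 7 of 10 were called higher in CD VEH versus WT VEH, 9 of 10 lower in CD JZL184 versus CD VEH, and 10 of 10 higher in WT JZL184 versus WT VEH. The shares of all tested genes called in those directions were 15.0%, 17.0% and 15.4%. WT JZL184 mouse B, which had the most Fabp4 and Gpihbp1, also had the most of these markers. Their part in the level of Fabp4 was not tested.

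The sum of the 10 adipocyte markers lay between 16.9 and 20.1 CPM in every mouse, and nearly all of it was Cidea, the 1 marker that passed the filter, which was called in no comparison. The markers that define fat cells were far below the filter and were not tested. Adipoq had group means of 0.0341 CPM in WT VEH, 0.198 CPM in CD VEH, 0.128 CPM in CD JZL184 and 0.0554 CPM in WT JZL184. Cfd (adipsin) had 0.0403, 0.785, 0.398 and 0.149 CPM in the same order, and Plin1 had 0.0815, 0.226, 0.178 and 0.0634 CPM. These means were thus higher in CD VEH than in WT VEH and lower in CD JZL184 than in CD VEH. They rest on 5 to 195 counts per group, and CD VEH and CD JZL184 mice overlapped in each gene. Adig, also below the filter, did not fall with JZL184 (0.807 CPM in CD VEH, 0.858 CPM in CD JZL184). Cidea went the other way in both steps, at 17.6, 16.3 and 17.05 CPM in WT VEH, CD VEH and CD JZL184. The part of these markers in the level of Fabp4 was not tested. Ucp1 had 0 counts in all CD JZL184 mice, which allows up to 0.0325 to 0.0374 CPM in these 3 libraries.

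Of the other cell types, the 8 fibroblast markers were called higher in 4 and lower in 0 in CD VEH versus WT VEH. Of 8 mural cell markers (7 tested), 5 were higher and 1 lower. In that comparison, 15.0% of all tested genes were called higher and 15.4% lower. None of the 5 blood markers was called in it, with CD VEH mouse A alone far above the rest. All 5 were lower in CD JZL184 versus CD VEH, where 17.0% of all tested genes were. Among 16 cardiomyocyte markers, 1 was higher in CD VEH versus WT VEH, below the share of all tested genes, and 5 were lower. The sum of the 16 markers was 0.884-fold that of WT VEH. Lpl, Acsl1 and Vldlr had 0.717-fold, 0.792-fold and 0.743-fold of the WT VEH level, and Fabp3 1.07-fold.

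**Figure D4:**
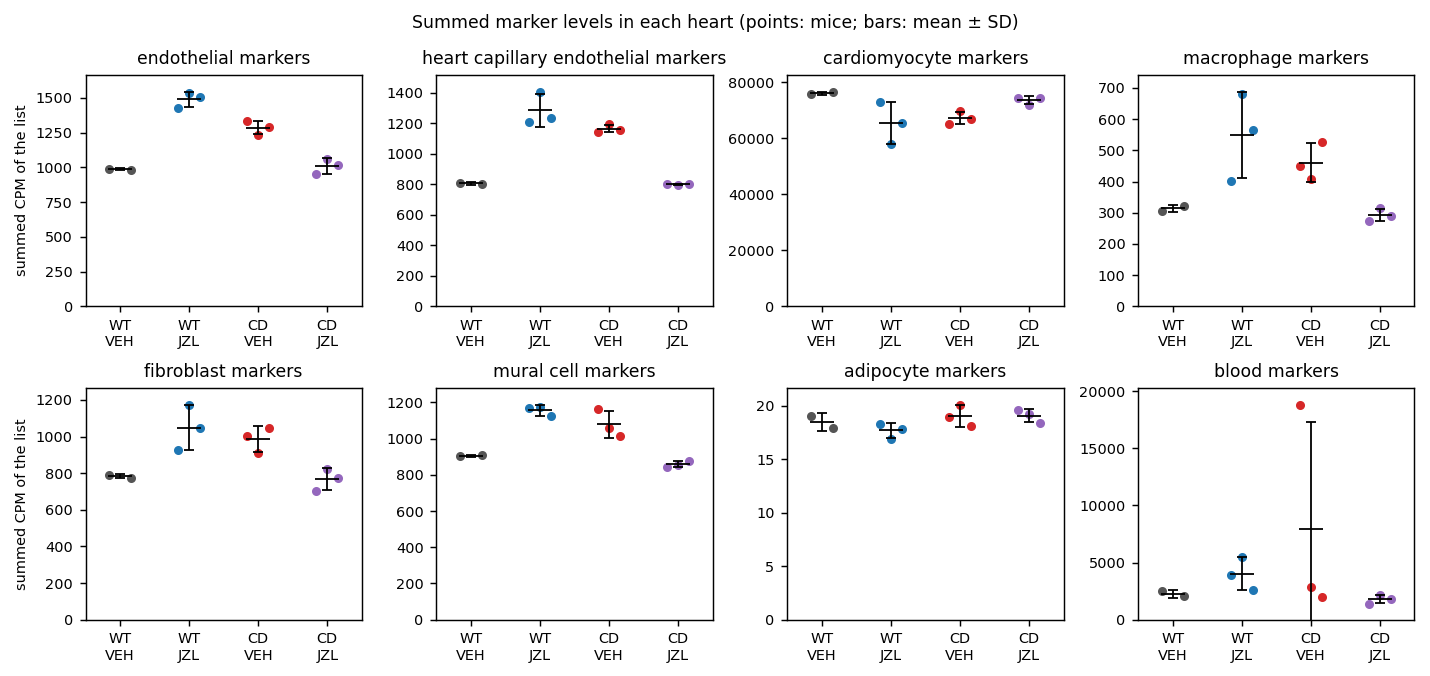
Summed CPM of 8 lists of cell type markers in each heart, on linear axes from 0, with a point for each mouse and black bars for the group mean ± SD (the lower bar of the blood markers in CD VEH is cut at 0). Endothelial, capillary, macrophage, fibroblast and mural sums are higher in WT JZL184 and CD VEH than in the other groups, the adipocyte sum, nearly all of it Cidea, lies between 16.9 and 20.1 CPM throughout, and a single CD VEH mouse has the high blood sum of 18790 CPM.

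A further list of 42 genes holds other transporters, binding proteins, acyl-CoA synthetases, lipase cofactors and lipoprotein receptors of the pathway. Of these, 23 were tested, and Fabp2 and Fabp6 (intestinal binding proteins) had 0 counts in every mouse. In CD VEH versus WT VEH, 8 were higher and 4 lower, where 15.0% and 15.4% of all tested genes were called, with a median log2 fold-change of 0.12 against 0.01 for all tested genes. In CD JZL184 versus CD VEH, 4 were higher and 7 lower (all tested genes 16.8% and 17.0%), and in WT JZL184 versus WT VEH, 8 were higher and 2 lower (all tested genes 15.4% and 14.0%). In CD JZL184 versus WT JZL184 the counts were 2 and 8 (all tested genes 18.2% and 20.1%), and in the interaction 4 and 9 (all tested genes 25.3% and 26.2%). The 2 and the 4 higher genes of these last comparisons were below the share of all tested genes.

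Of these, Cav2 had the lowest p in each of the 5 comparisons. Cav1 and Cav2 are caveolins, coat proteins of the membrane pits that are dense in capillary endothelium. Cav1 was at 147 to 157 CPM in WT VEH, 217 to 257 CPM in CD VEH, 149 to 178 CPM in CD JZL184 and 247 to 254 CPM in WT JZL184. It rose by 0.66 in CD VEH (edgeR adjusted p = 0.00212) and fell by 0.53 with JZL184 in CD mice (edgeR adjusted p = 0.00235), both on the log2 scale. Cav2 had log2 fold-changes of 0.64 (edgeR adjusted p = 0.000793) and -0.66 (edgeR adjusted p = 0.00201) in these comparisons. Acsl5, an acyl-CoA synthetase related to Acsl1, went against it, with 0.55 (edgeR adjusted p = 0.00619) and -0.54 (edgeR adjusted p = 0.00336). Sel1l, needed in the endoplasmic reticulum for the maturation of lipoprotein lipase, went with Lpl, with -0.49 (edgeR adjusted p = 0.00162) and 0.34 (edgeR adjusted p = 0.00264).

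The genes most like Fabp4, Gpihbp1 and Fabp3 were sought among all other tested genes by the Pearson correlation of log2 CPM over the 11 mice, as a description. For Fabp4 they were Wtip (r = 0.99), Pla2g7 (0.99) and Colec11 (0.99). For Gpihbp1 they were Cstb, Hrct1 and Sri (0.98 each). Fabp3 had weaker ones in Rab28 (0.92), Map1lc3b (0.90) and Mrpl14 (0.88). The 11 mice share 4 groups. Between the genes described here, Fabp4 and Gpihbp1 had r = 0.97, and 0.88 after the group means were removed. For Fabp4 and Lpl the values were -0.94 and -0.84, and for Fabp5 and Vldlr -0.97 and -0.91. Other pairs kept less of their correlation within groups, with 0.83 and 0.28 for Fabp5 and Gpihbp1, -0.93 and -0.48 for Fabp4 and Acsl1, and -0.89 and -0.29 for Gpihbp1 and Acsl1.

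The genes that were higher and those that were lower in CD VEH also differ in length. Fabp3, Fabp4, Fabp5 and Gpihbp1 have principal transcripts of 823 to 987 bases, in the shortest quintile of the tested genes, and Lpl, Acsl1 and Vldlr have 3897 to 7971 bases. Over the 11248 tested genes with a known length, the median log2 fold-change in CD VEH versus WT VEH was 0.17 in the shortest quintile (2250 genes) and -0.16 in the longest. In CD JZL184 versus CD VEH it was -0.18 and 0.15, and in WT JZL184 versus WT VEH 0.12 and -0.14. The whole table thus leaned by length in the direction of these genes. The counts, sums and fold-changes of the marker lists above are without a correction for length.

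With a correction of each library for the length of the principal transcript, Fabp4 kept a log2 fold-change of 0.52 in CD VEH versus WT VEH (edgeR adjusted p = 0.00903), Gpihbp1 0.46 (edgeR adjusted p = 0.0158) and Fabp5 0.59 (edgeR adjusted p = 0.028). Lpl kept -0.44 (edgeR adjusted p = 0.0123) and Acsl1 -0.31 (edgeR adjusted p = 0.0325), while Vldlr, at -0.26, missed the threshold (edgeR adjusted p = 0.058). Fabp3 turned to -0.15 (edgeR adjusted p = 0.218). In CD JZL184 versus CD VEH all 6 genes were called with this correction too, at -0.40 for Fabp4 and for Gpihbp1, 0.37 for Lpl and 0.25 for Vldlr. Gpihbp1 was at -0.45 in CD JZL184 versus WT JZL184 and at -0.91 in the interaction, where Vldlr was at 0.48, all of them called. Fabp5 lost its call in WT JZL184 versus WT VEH (edgeR adjusted p = 0.0836) and in CD JZL184 versus WT JZL184 (edgeR adjusted p = 0.104), and so did Vldlr (edgeR adjusted p = 0.072 and 0.0518). With the length of the union of exons instead, Acsl1 was at 0.24 in CD JZL184 versus CD VEH (edgeR adjusted p = 0.0492), and the calls lost were that of Acsl1 in CD VEH versus WT VEH (log2 fold-change -0.20, edgeR adjusted p = 0.127), that of Vldlr in WT JZL184 versus WT VEH (edgeR adjusted p = 0.0508), that of Lpl in CD JZL184 versus WT JZL184 (edgeR adjusted p = 0.0527) and that of Cd36 in the interaction (edgeR adjusted p = 0.217). The direction of Fabp3 therefore depends on whether length is corrected, and that of the other genes did not change with it. The principal transcripts of Fabp3 and Gpihbp1 are almost equally long (823 and 825 bases), and the difference in their log2 ratio moved by at most 0.014 with the correction for the principal transcript. With the union of exons, where Gpihbp1 is listed at 2554 bases, it moved from 0.61 to 0.78 in CD VEH versus WT VEH and from -1.24 to -1.63 in the interaction.

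**Figure D5:**
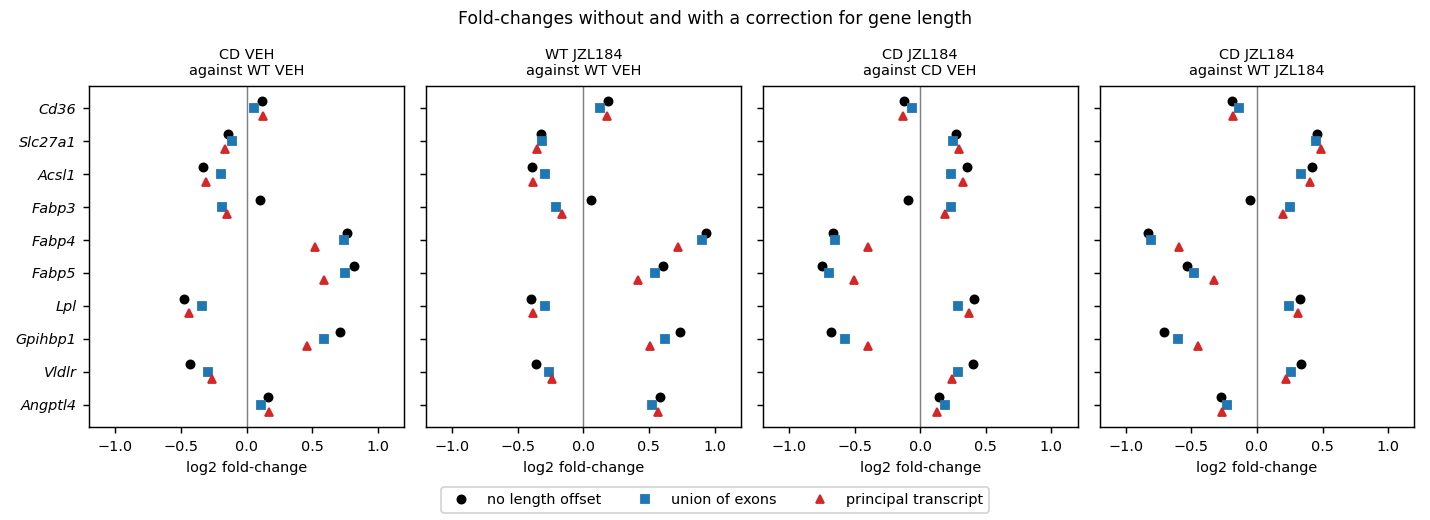
Log2 fold-change of the 10 genes in 4 comparisons without a length correction (black circles), with a correction for the union of exons (blue squares) and with a correction for the principal transcript (red triangles). The values of Fabp4, Gpihbp1 and Fabp5 shrink towards 0 and keep their side, whereas Fabp3 crosses 0 in each panel.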

How the data were processed

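Each of the 11 mice was taken as a replicate of its group, given by the labels and the table's column names. The file the authors deposited holds estimated counts for each gene and mouse, made with Salmon 0.7.2 (build mm10) and not normalized. All columns had a group (0 without). Here the counts were rounded and filtered at an average log2 CPM of 1, scaled by TMM and fitted in a single model of 4 groups with edgeR 4.0.16 (quasi-likelihood, limma 3.58.1, R 4.3.3). Calls were adjusted p under 0.05 over all 11319 tested genes. The common biological coefficient of variation was 9.13%. Gene positions and lengths came from GENCODE M21, which matched 22315 of 22608 identifiers. Log2 CPM used a prior count of 2. Ratios were tested by exact permutation over mice, with treatment labels permuted within genotype for the interaction.

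All 10 genes are named, and likeness lists hold 3 genes each. Of the further pathway list, genes of at least 10 CPM with a low p were eligible. The choice did not follow p strictly. Glmp, with a lower edgeR p than Acsl5 in CD VEH versus WT VEH, was passed over. The genes, lists and tests were chosen with earlier results of these data known. The steps were tested on simulated counts with 200 genes changed in CD VEH. Of these, edgeR recovered 97%, with 5.37% of its calls false, and with the gene length offset 96.5%, with 5.39% false. DESeq2 recovered 98%, with 14.8% of its calls false. The alternatives were DESeq2 1.42.0, RLE and upper quartile factors, no mitochondrial genes, no filter, at least 10 counts in every mouse, a gene length offset (loess, span 0.5), only the compared groups and leaving out each mouse. The offset for the principal transcript and a block by column letter were added after seeing the data.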

Additional observations from a re-analysis of the deposited data

Results flagged for a closer look

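For 8 of the 10 genes, the effect of JZL184 in CD mice differed from that in WT mice by the edgeR interaction test over all 4 groups, with opposite signs of the change in each genotype. The difference (the log2 fold-change in CD minus that in WT) was -0.31 for Cd36, -1.60 for Fabp4, -1.36 for Fabp5, 0.81 for Lpl, -1.42 for Gpihbp1, 0.60 for Slc27a1, 0.75 for Acsl1 and 0.76 for Vldlr. The difference of Cd36 was at the edge of the threshold and lost its call in 8 of the 11 fits that left out 1 mouse. With edgeR, neither of its single effects passed the threshold (0.19 in WT and -0.12 in CD mice). Nor did those of Slc27a1 (-0.32 and 0.27). With DESeq2 the effect of Cd36 in WT mice passed (DESeq2 adjusted p = 0.0421). The log2 ratio of Fabp4 to Fabp3 differed by -1.42 and that of Gpihbp1 to Fabp3 by -1.24, but the permutation test did not test for equal effects. Over all tested genes, 25.3% were called higher and 26.2% lower in the interaction, so such a difference was common in these hearts.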

How the results depend on the processing

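The columns of the table carry a letter in place of the replicate numbers of the labels, and the letters recur between groups. A fit with the letter as a replicate block (5 letters, 3 residual degrees of freedom) was added after seeing the data. The deviations from the group means had r over 0.1 in 1 of 8 same-letter pairs (-0.25 to 0.31). Groups this small, with no different-letter pairs compared, cannot show whether the letters pair the mice. With the block 5, 7, 2, 4 and 7 of the 10 genes were called in CD VEH against WT VEH, CD JZL184 against CD VEH, WT JZL184 against WT VEH, CD JZL184 against WT JZL184 and the interaction, and 2401, 3915, 591, 1182 and 4556 of all tested genes. Slc27a1 turned to 0.099 in the first comparison, and Angptl4 to -0.24 in the second and 0.36 in the fourth, none of them called.

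Leaving out each mouse of the compared groups in turn gave 1 to 6 called genes in CD VEH against WT VEH, 1 to 6 in WT JZL184 against WT VEH, 6 to 7 in CD JZL184 against CD VEH, 5 to 8 in CD JZL184 against WT JZL184 and 6 to 8 in the interaction. In the first 2 of these the lowest counts were those without a WT VEH mouse, where the lone mouse left is assumed to vary like the other groups. Over all tested genes, the calls in CD VEH against WT VEH then fell from 3440 to 385 (without mouse C) and 1217 (without mouse D), and in WT JZL184 against WT VEH from 3332 to 558 and 1031. The count of 5 came without CD JZL184 mouse A, where Fabp5 and Vldlr lost their calls (edgeR adjusted p = 0.0868 and 0.0516). Other settings that moved that count by over 1.5 times were the compared groups alone in WT JZL184 against WT VEH (1652) and, in CD VEH against WT VEH and CD JZL184 against CD VEH, leaving out CD VEH mouse A (1930 and 2098), CD VEH mouse E (1976 and 2038) and, in the second, CD JZL184 mouse A (2450) and mouse E (2150). WT JZL184 without mouse B gave 2093 in the last WT comparison.

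Among the settings other than the block, the length offsets and leaving out a mouse, 332 of 340 gene fold-changes kept direction and call. Of the others, 5 lost the call and 3, all of Cd36, gained it. The counts of called genes stayed within 1.5 times. With the 2 length offsets, 81 of 100 kept both. Fabp3 reversed in all 5 comparisons, to -0.19, 0.24, -0.21, 0.25 and 0.44 with the union of exons (CD VEH against WT VEH, CD JZL184 against CD VEH, WT JZL184 against WT VEH, CD JZL184 against WT JZL184, interaction) and to -0.15, 0.19, -0.16, 0.20 and 0.35 with the principal transcript. Those at 0.24, 0.25 and 0.44 and that at 0.35 were called by edgeR. With the union of exons the difference in the log2 ratio of Fabp4 to Fabp3 moved, in the same order, to 0.93, -0.88, 1.11, -1.06 and -1.99 and that of Gpihbp1 to Fabp3 to 0.78, -0.81, 0.83, -0.85 and -1.63, where that length is 4489 bases for Fabp4 and 2554 for Gpihbp1. The cause of the lean by length was not tested.

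Angptl4 reversed when a mouse was left out, within -0.47 to 1.35, -1.09 to 0.57, -0.051 to 1.76, -1.50 to 0.15 and -1.67 to 0.19 in the same order of comparisons. The interaction of Cd36 lost its call without mitochondrial genes, without a filter, with at least 10 counts in every mouse, with the union of exons and with the letter block. The compared groups alone were not run for the interaction, which needs all 4 groups. On the median transcript length, Acsl1 (673 bases) stood at 884 CPM per kb, against 56.8 on the union of exons.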

Other observations

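Apoe and Scarb1 belong to the further list of pathway genes, and their levels are not given above. Apoe, a ligand of lipoprotein receptors that macrophages make in quantity, stood at 136 to 144 CPM in WT VEH, 213 to 386 CPM in WT JZL184, 217 to 277 CPM in CD VEH and 144 to 157 CPM in CD JZL184, with a log2 fold-change of 1.04 in WT JZL184 against WT VEH (edgeR adjusted p = 0.00506). Scarb1, a receptor for high density lipoprotein, stood at 21.02 to 22.3 CPM in WT VEH and 29.1 to 35.0 CPM in WT JZL184. It was at 24.5 to 28.9 CPM in CD VEH and 23.8 to 24.9 CPM in CD JZL184. Its log2 fold-change was 0.55 in WT JZL184 against WT VEH (edgeR adjusted p = 0.00273). In CD JZL184 against CD VEH the groups overlapped and Scarb1 was not called (log2 fold-change -0.15, edgeR adjusted p = 0.157).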
